A study of Mus musculus with 36 samples.

Results

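The ubiquitin-specific proteases other than Usp18 were read across all 18 groups of a mouse microarray series on Usp18 in microglia. The members were chosen by name: every probe set whose only gene symbol is Usp followed by a number, without Usp18. This gave 67 probe sets of 38 genes among the 22626 probe sets of the arrays that are not controls. Of these genes 20 had 1 probe set and 18 had several. A further 3 probe sets of Usp symbols shared by several genes were left out.

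Primary microglia came from wild-type (WT) mice, from Usp18ko mice (KO) and from Usp18_C61A mice (C61A), in which, as background, the catalytic cysteine of the protease is replaced while the protein is still made. The microglial line BV-2, an immortalised mouse line that retains many microglial genes, was given control siRNA (siCo) or siRNA against Usp18 (siUsp18). Every group was either untreated or exposed to 500 U/ml of interferon beta (IFN-b) for 6 h or 24 h. Each group held 2 arrays named as biological replicates, and nothing in the labels says whether those came from separate animals or cultures, so p-values measure only the spread between these samples. Neither the age of the mice nor the making of the KO allele is given in the labels.

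Ubiquitin-specific proteases are cysteine proteases that take ubiquitin off proteins or trim ubiquitin chains. They thereby set how long a protein lives or whether a signalling complex stays active, and several of them act on adaptors and kinases of the pathways that lead to interferon and NF-kB. Usp18 differs from the rest of the family: it removes the ubiquitin-like protein ISG15, is itself strongly induced by interferon, and blocks the interferon receptor independently of its protease activity. The members below therefore show whether a relative of Usp18 was also induced, and whether any was higher or lower where Usp18 was missing, knocked down or catalytically dead.

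The promoters below are those of 5 members that moved in the comparisons and had an entry in the table, of Usp49, shown as the only member window with the longer motif, and of Isg15, a gene known to be induced by interferon. Usp49 itself was called in no response to IFN-b and in no comparison of genotypes or siRNAs (WT at 6 h: -0.08 ± 0.12). They are the RefSeq sequences of build GRCm38.p6 from 250 bases before to 50 bases after the start of transcription, printed 5′ to 3′ on the strand of the gene. Promoters of 28 of the 38 genes were in the table. Capitals mark matches, on either strand, to AANNGAAA, the core bound by interferon regulatory factors, or to the longer interferon-stimulated response element core, a pair of GAAA 2 bases apart, each match of which holds a match of the shorter motif.
Usp25, chr16:77013819-77014118, plus strand: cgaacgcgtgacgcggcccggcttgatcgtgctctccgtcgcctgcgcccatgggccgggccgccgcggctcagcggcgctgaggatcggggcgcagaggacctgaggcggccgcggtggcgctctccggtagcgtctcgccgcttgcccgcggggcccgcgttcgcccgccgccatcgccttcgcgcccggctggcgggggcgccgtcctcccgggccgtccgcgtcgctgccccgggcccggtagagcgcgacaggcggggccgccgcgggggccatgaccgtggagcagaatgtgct
Usp15, chr10:123196970-123197269, minus strand: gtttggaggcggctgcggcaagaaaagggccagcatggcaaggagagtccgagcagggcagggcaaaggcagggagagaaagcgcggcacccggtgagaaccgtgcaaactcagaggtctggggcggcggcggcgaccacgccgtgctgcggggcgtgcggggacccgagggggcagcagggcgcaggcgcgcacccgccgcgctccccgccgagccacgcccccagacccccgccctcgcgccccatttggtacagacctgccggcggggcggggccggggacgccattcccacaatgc
Usp21, chr1:171287912-171288211, minus strand: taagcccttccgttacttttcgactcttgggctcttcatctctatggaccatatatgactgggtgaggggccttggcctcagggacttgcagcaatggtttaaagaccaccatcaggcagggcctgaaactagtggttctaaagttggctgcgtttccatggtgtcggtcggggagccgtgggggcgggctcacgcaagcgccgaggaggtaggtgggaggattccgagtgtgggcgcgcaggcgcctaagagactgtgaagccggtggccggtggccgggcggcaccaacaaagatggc
Usp12, chr5:146794907-146795206, minus strand: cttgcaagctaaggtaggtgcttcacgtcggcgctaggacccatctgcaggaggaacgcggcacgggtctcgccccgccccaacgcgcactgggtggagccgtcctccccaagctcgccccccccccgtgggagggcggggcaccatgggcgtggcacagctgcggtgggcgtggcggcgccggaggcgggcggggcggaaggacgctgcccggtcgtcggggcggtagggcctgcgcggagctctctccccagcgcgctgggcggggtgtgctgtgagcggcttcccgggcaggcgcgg
Usp47, chr7:112023256-112023555, plus strand: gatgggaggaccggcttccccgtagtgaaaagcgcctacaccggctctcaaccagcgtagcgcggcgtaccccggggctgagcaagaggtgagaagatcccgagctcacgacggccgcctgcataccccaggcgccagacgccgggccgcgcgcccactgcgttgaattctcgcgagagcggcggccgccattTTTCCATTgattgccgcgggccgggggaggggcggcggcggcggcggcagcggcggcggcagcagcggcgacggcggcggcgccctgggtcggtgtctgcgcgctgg
Usp49, chr17:47630440-47630739, plus strand: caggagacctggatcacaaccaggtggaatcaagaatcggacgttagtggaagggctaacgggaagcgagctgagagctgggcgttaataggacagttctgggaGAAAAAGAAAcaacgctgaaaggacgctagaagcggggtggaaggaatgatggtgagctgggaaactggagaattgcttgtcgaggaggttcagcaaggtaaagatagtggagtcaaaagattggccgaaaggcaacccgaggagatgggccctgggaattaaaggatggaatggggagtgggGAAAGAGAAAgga
Isg15, chr4:156200769-156201068, minus strand: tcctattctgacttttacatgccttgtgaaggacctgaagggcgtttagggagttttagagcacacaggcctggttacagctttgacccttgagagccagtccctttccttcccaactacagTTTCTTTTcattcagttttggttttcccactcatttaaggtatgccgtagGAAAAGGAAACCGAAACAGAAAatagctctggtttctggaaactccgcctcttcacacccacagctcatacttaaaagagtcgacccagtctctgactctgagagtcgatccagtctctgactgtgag

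The window of Isg15 held 3 overlapping matches to the longer core, and those of Usp25, Usp15, Usp21 and Usp12 held none of either motif. Among the 28 member promoters only that of Usp49 matched the longer core, which occurred in 3.44% of the 32851 promoters of the table. The shorter AANNGAAA was found in 23.9% of all promoters and in 5 member promoters, those of Usp45, Usp47, Usp49, Usp26 and Usp9y. The core bound by activated STAT dimers, TTCNNNGAA, was found in 8.3% of all promoters and in those of Usp17la, Usp27x and Usp26. A match describes letters in this window and not a binding site.

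The values are deposited log2 intensities, so a difference of 1 is a doubling, and levels of different probe sets are not compared. The 12 WT arrays lie in 2 runs of the deposition order, called set 1, next to those of KO, and set 2, next to those of C61A. The labels do not say what these runs are. Correlations between WT arrays were 0.945 to 0.99 inside a set and 0.902 to 0.957 across sets. KO was therefore compared with set 1 and C61A with set 2. WT responses are the mean of both sets, with single-set values beside many of them. The summed picture of 8 interferon reporter genes (mean log2) rose from 5.97 and 6.24 in untreated WT set 1 to 12.04 and 12.21 at 6 h, whereas the 6 KO arrays lay at 12.03 to 12.59 with or without IFN-b. Of 3 arrays doubted in earlier work on these data, the array labelled untreated WT set 2 replicate 1 had reporters at 11.87 against 7.06 in replicate 2, and the array labelled C61A 6 h replicate 2 had 9.51 against 12.14. The array labelled siUsp18 6 h replicate 2 had a mean of 10.3 over 11 microglial markers, against 7.69 to 8.87 in the other BV-2 arrays, and 5.67 over 7 astrocyte markers, against 4.13 to 4.31. Fits without these 3 arrays leave 1 array in each of their groups. The microglial ones go against their labels in the interferon reporters, so such fits are no independent test of the response to IFN-b. Astrocyte markers ran from 4.96 to 6.59 in KO and WT set 1 and from 5.75 to 9.19 in C61A and WT set 2, and their part in the results was not tested. In such bulk samples, fewer cells of a type and less RNA per cell cannot be told apart. Of the microglial list 10 of 11 markers lay above the array median on all primary arrays. Usp18 itself stood at 4.40 and 3.77 in untreated KO and at 5.85 to 6.42 in treated KO, against 12.56 and 12.41 in WT set 1 at 6 h. In BV-2 the siRNA left Usp18 at 7.92 and 9.001 untreated, against 8.38 and 8.59 with siCo, so the labelled knockdown is not visible in the untreated arrays. At 6 h Usp18 read 11.10 and 12.49 with siUsp18 and 12.15 and 12.04 with siCo. At 24 h it read 11.07 and 11.48 with siUsp18, below both siCo arrays at 11.51 and 11.73, a difference of -0.34 ± 0.44 that was not called.

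Most of the family was measurable. Probe sets that exceeded the median of the array on 2 or more arrays were tested, which kept 52 probe sets of 29 genes in microglia and 48 of 28 genes in BV-2. The 13 kept in neither fit lay below the median on all 36 arrays. They included every probe set of 8 genes: Usp9y, Usp13, Usp17la, Usp26, Usp27x, Usp29, Usp42 and Usp43. Usp26, Usp29 and the Usp17-like genes are known mainly from the germ line, and their levels ran from 2.48 to 3.72. Usp9y, the Y-linked relative of Usp9x, lay at 2.78 to 3.59, and Usp13, the closest relative of Usp5, at 3.59 to 4.74.

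Across the family, calls were most frequent in KO against WT at 24 h, where the share of members called was close to that of all probe sets. In WT microglia at 6 h 3 probe sets rose and 6 fell of 52, or 17.3%, at an adjusted p under 0.05, where 12.7% of all 13546 probe sets were called (6.53% rose and 6.16% fell); the median change was 0.03 for the members and -0.12 for all. At 24 h none was called, with limma, where 2.5% of all were; 10 members had an unadjusted p under 0.05. Untreated KO against WT gave 5 higher and 6 lower, or 21.2%, against 14.3% of all (6.87% higher and 7.4% lower). At 6 h 4 were higher and 1 lower, or 9.62%, against 7.6% (2.41% higher and 5.19% lower), and at 24 h 6 were higher and 8 lower, or 26.9%, against 27.6% (10.4% higher and 17.2% lower). Within KO, 3 rose and 1 fell at 6 h, where 6.5% of all were called (2.27% rose and 4.22% fell), and 1 fell at 24 h, where 3.2% were (1.25% rose and 1.94% fell). The untreated KO and the WT response share the untreated WT set 1 arrays, and the untreated KO arrays already carried interferon reporters at the level of treated WT.

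The count in the WT response at 6 h rests on few arrays. Culture was also used as a random block, each replicate number of WT set 1, WT set 2, KO and C61A being taken as 1 culture. In that fit 16 probe sets were called at 6 h in place of 9, and 6 at 24 h in place of none. Here and below, the share of all probe sets called was not computed for blocked fits or fits that leave arrays out. Their counts are therefore no result about the family against all probe sets. The 6 h count was 15 without the 3 doubted arrays and also without untreated WT set 2 replicate 1 alone. It dropped to 2 or 3 without an untreated WT set 1 array (replicates 1 and 2), to 3 without WT set 1 6 h replicate 2, to 1 without untreated WT set 2 replicate 2, and to 1 or 4 without a WT set 2 6 h array (replicates 1 and 2). Set 1 alone gave 6 higher and 6 lower, where 22.4% of all probe sets were called (10.2% rose and 12.2% fell), and set 2 alone gave none with limma, where 0.00738% were and 1 member had an unadjusted p under 0.05. At 24 h set 1 alone gave 1, and set 2 alone none, where 0.0148% were called and 5 members had an unadjusted p under 0.05.

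The untreated KO count was 1 without KO 0 h replicate 1, and 4 and 2 without untreated WT set 1 replicates 1 and 2. For KO against WT at 6 h it was 0 without KO 6 h replicate 1 or WT set 1 6 h replicate 1, 2 without WT set 1 6 h replicate 2 and 10 without KO 6 h replicate 2. It was also 3 without any of the 4 untreated and 24 h WT set 1 arrays, which lie outside the comparison. At 24 h it was 3 and 7 without KO replicates 1 and 2 and 4 without either WT set 1 array. The KO response count at 6 h was 0, 2 and 8 without KO 6 h replicate 1, KO 0 h replicate 2 and KO 6 h replicate 2.

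**Figure D1:**
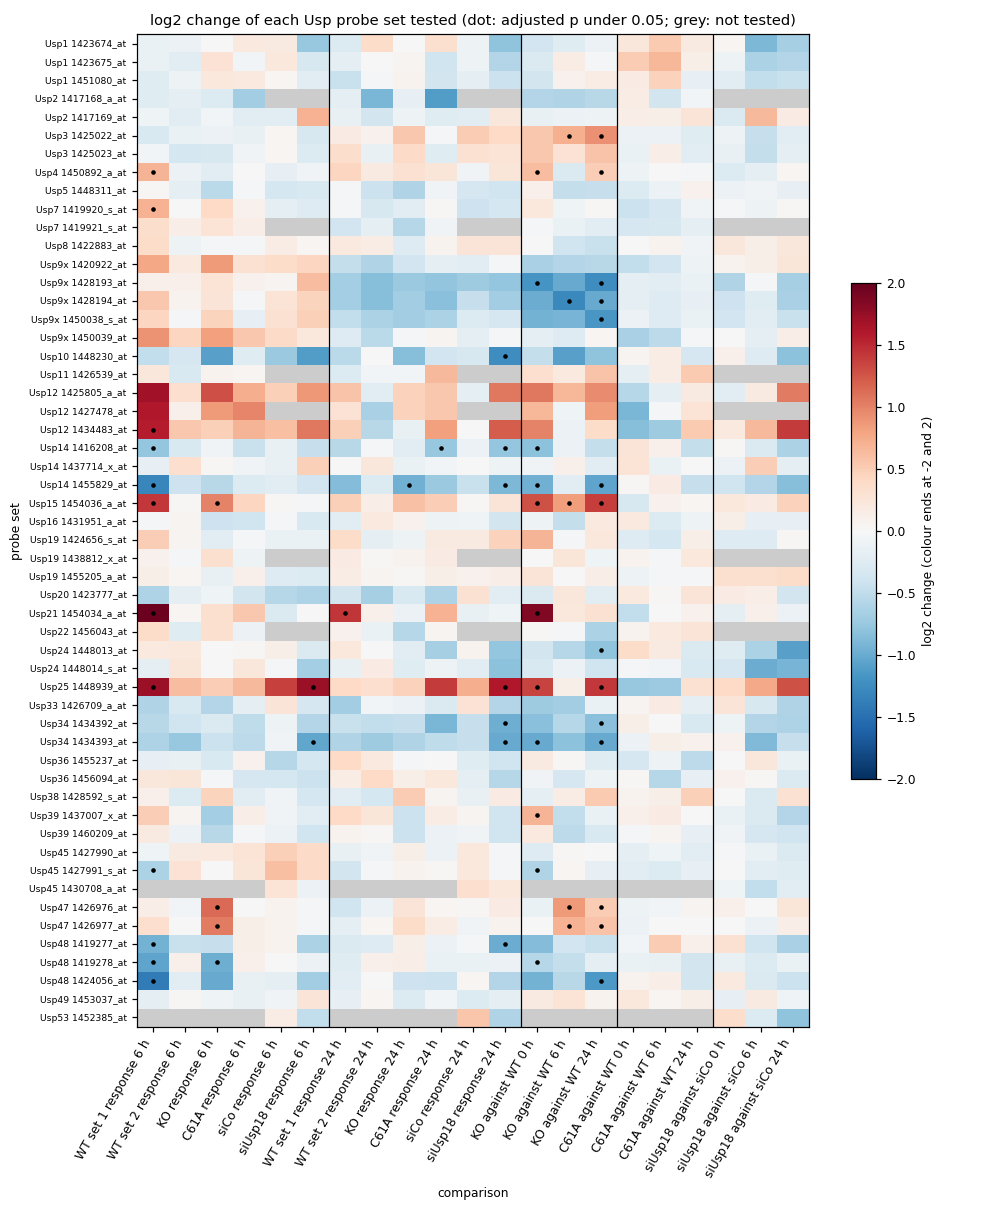
Log2 change (colour, blue lower and red higher) of each of the 54 Usp probe sets tested in at least 1 fit (rows) in 21 comparisons (columns); a dot marks an adjusted p under 0.05 and grey a probe set that was not tested. The 58 dots gather in the WT set 1 response at 6 h, the KO comparisons and the siUsp18 response at 24 h, and there is none in the C61A against WT or siUsp18 against siCo columns.

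Of the members that act on innate signalling, Usp25 had the largest rise in the WT response at 6 h. Usp25 deubiquitinates adaptors of the interleukin-17, Toll-like receptor and RNA-sensing pathways. Its probe set 1448939_at read 8.30 and 8.21 in untreated WT set 1, 10.17 and 9.77 at 6 h and 8.94 and 8.35 at 24 h. In WT set 2 it read 10.91 and 9.70 untreated, 10.89 and 10.96 at 6 h and 10.69 and 10.59 at 24 h. The groups did not overlap in set 1, while in set 2 the array labelled untreated replicate 1 already stood at the treated level. The WT change at 6 h was 1.17 ± 0.29 (log2, SE; adjusted p = 0.0205), made of 1.71 in set 1 and 0.62 in set 2, and 1.47 without the doubted arrays. The call was lost in 6 of the fits that leave out 1 array, with changes of 0.86 to 1.19: those without either untreated WT set 1 array, WT set 1 6 h replicate 1, untreated WT set 2 replicate 2, or either WT set 2 6 h array. At 24 h the WT change was 0.36 ± 0.29 and was not called.

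Untreated KO microglia had Usp25 at 9.96 and 9.24, above both untreated WT set 1 arrays, and KO stayed at 9.91 to 10.28 after IFN-b. Against WT this was 1.35 ± 0.42 untreated (adjusted p = 0.0432), 0.12 ± 0.42 at 6 h and 1.42 ± 0.42 at 24 h (adjusted p = 0.0216). The untreated call was lost without KO replicate 1 (0.98) or untreated WT set 1 replicate 1 (1.40) or 2 (1.30), and the 24 h call without KO replicate 1 (1.34) or 2 (1.49) or WT set 1 replicate 2 (1.12). With culture as a random block the untreated adjusted p was 0.065. The untreated call was also lost where both WT sets served as the control, with set additive (1.15) or left out (0.32). The 24 h call was lost with set left out (0.42). C61A arrays read 9.32 and 9.78 untreated, 10.87 and 9.52 at 6 h and 10.84 and 11.05 at 24 h. The 24 h change of 1.40 ± 0.42 had an adjusted p of 0.0501, and without the doubted arrays it was called (1.40). The 6 h change was then 1.33, with 1 C61A array left at 6 h. In BV-2 Usp25 rose under siUsp18 from 8.25 and 8.40 to 9.66 and 10.44 at 6 h (1.73 ± 0.33, adjusted p = 0.0422) and to 9.44 and 10.42 at 24 h (1.61 ± 0.33, adjusted p = 0.017). With siCo it went from 7.75 and 8.10 to 9.33 and 9.24 and then 8.60 and 8.70, changes of 1.36 ± 0.33 and 0.73 ± 0.33 that were not called. The difference between the siRNAs' responses at 24 h was 0.88 ± 0.47 (adjusted p = 0.538).

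Usp15, which acts on the RNA sensor pathway, on TGF-beta receptors and on NF-kB regulators, was the member with the lowest adjusted p in KO against WT at 24 h. Probe set 1454036_a_at read 7.91 and 7.96 in untreated WT set 1, 9.26 and 9.46 at 6 h and 8.39 and 8.45 at 24 h. KO read 9.52 and 8.89, then 10.27 and 10.13, then 9.78 and 9.81, so KO lay above WT set 1 at each time with no overlap. KO against WT was 1.27 ± 0.24 untreated (adjusted p = 0.00444) and 0.84 ± 0.24 at 6 h (adjusted p = 0.0459). After 24 h it was 1.38 ± 0.24 (adjusted p = 0.00128). The 24 h call was kept in all fits that leave out 1 array and in all alternatives run. The untreated call was lost without KO replicate 1 (0.95). It was also lost where both WT sets served as the control, with set additive (0.98) or left out (0.93). At 6 h it was lost without KO 6 h replicate 1 (0.77) or 2 (0.91), WT set 1 6 h replicate 1 (0.74) or 2 (0.94), and in a further 14 fits without arrays outside the comparison. With culture as a random block the 6 h adjusted p was 0.0608.

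Interferon raised Usp15 by 0.72 ± 0.17 in WT at 6 h (adjusted p = 0.0152), all of it from set 1, where the change was 1.42, against 0.02 in set 2. WT set 2 read 9.02 and 8.21 untreated and 8.73 and 8.54 at 6 h. The call was lost without untreated WT set 1 replicate 1, WT set 1 6 h replicate 2, WT set 2 6 h replicate 1 or untreated WT set 2 replicate 2, at 0.52 to 0.71. In KO it rose by 0.99 ± 0.24 at 6 h (adjusted p = 0.0275), a call lost without KO 6 h replicate 1 (0.92) or KO 0 h replicate 2 (0.68). C61A and BV-2 gave no call for Usp15, and siCo arrays stayed between 8.98 and 9.14. With siUsp18 Usp15 read 9.47 and 9.57 at 24 h. The difference from siCo was 0.46 ± 0.14 and was not called (limma, adjusted p = 0.084).

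Usp12, which stabilises the T-cell receptor and acts in NF-kB signalling, had 3 kept probe sets that all moved up at 6 h in WT, by 0.85 to 1.06, without a call. Probe set 1434483_at read 7.57 and 7.995 in untreated WT set 1 and 9.41 and 9.32 at 6 h, then 8.13 and 8.39 at 24 h; in set 1 alone the 6 h rise was 1.58 ± 0.50 (adjusted p = 0.0371). In WT set 2 it read 9.83 and 7.89 untreated and 9.31 and 9.50 at 6 h, the higher untreated value being that of the doubted array. Without the doubted arrays the 3 probe sets changed by 1.43 to 1.64 in WT at 6 h, with 1 untreated WT set 2 array left. Probe set 1434483_at then changed by 1.502 in C61A at 6 h, with 1 array left at that time. In the same fit it was called in C61A at 24 h (0.81) and in untreated KO against WT (0.98). Usp12 was also the member that moved most in siUsp18 against siCo at 24 h, at 1.39 ± 0.42, which was not called (adjusted p = 0.0803).

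**Figure D2:**
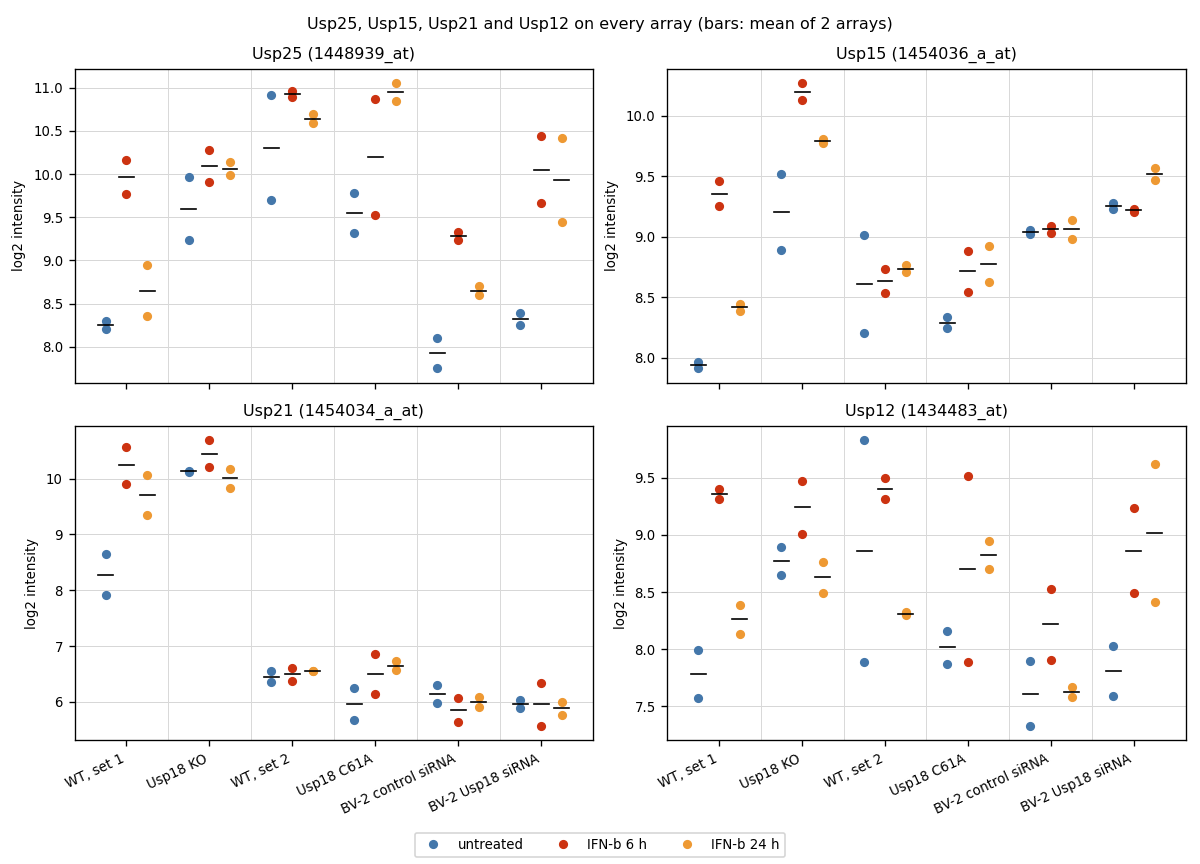
Log2 intensity (vertical axis) of Usp25, Usp15, Usp21 and Usp12 on each of 36 arrays, by genotype or siRNA (horizontal axis) and time of IFN-b (colour); points are arrays and bars the mean of 2 arrays. Untreated KO lies above untreated WT set 1 for all of them, and Usp21 reads above 7.9 only in KO and WT set 1.

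Usp4 and Usp3 also act on the RNA-sensing pathway, Usp4 stabilising and Usp3 restraining its sensor. Usp4 (1450892_a_at) read 7.97 and 7.59 in untreated WT set 1 and 8.39 and 8.40 in untreated KO, a difference of 0.62 ± 0.15 (adjusted p = 0.0144). At 24 h it read 8.18 and 8.23 in WT set 1 and 8.61 and 8.79 in KO (0.50 ± 0.15, adjusted p = 0.0235), and at 6 h the difference was -0.29 ± 0.15. The untreated call was lost without KO replicate 1 (0.62) or WT set 1 replicate 2 (0.43), and the 24 h call without any of its 4 arrays (0.41 to 0.59). Both calls were also lost where both WT sets served as the control, with set additive (0.45 each) or left out (0.38 each). At 6 h Usp4 rose in WT set 1, by 0.68 ± 0.15 (adjusted p = 0.00592), and changed by -0.11 ± 0.15 in set 2, which was not called.
Usp3 (1425022_at) read 7.94 and 8.03 in WT set 1 at 24 h and 8.99 and 8.80 in KO, a difference of 0.91 ± 0.19 (adjusted p = 0.00406) that was kept in all fits that leave out 1 array and in all alternatives run. At 6 h the difference was 0.72 ± 0.19 (adjusted p = 0.0392), lost without KO 6 h replicate 1 (0.52), WT set 1 6 h replicate 1 (0.55) or 2 (0.88), or any of 6 arrays of the same genotypes at other times; untreated it was 0.53 ± 0.19, without a call. The other Usp3 probe set, 1425023_at, gave 0.56 ± 0.22 at 24 h (adjusted p = 0.066).
Usp7, which stabilises p53 regulators, rose by 0.70 in WT set 1 alone at 6 h (adjusted p = 0.012), against -0.0036 in set 2, and the change over both sets was 0.35 ± 0.12, without a call. Usp10, which acts on p53 and NEMO, fell in BV-2 under siUsp18 at 24 h. It read 8.13 and 8.34 untreated and 7.33 and 6.64 at 24 h, a change of -1.25 ± 0.26 (adjusted p = 0.0174) that was lost without untreated siUsp18 replicate 1 (-1.35) or 2 (-1.15) or siUsp18 24 h replicate 2 (-0.90). In KO it read 5.32 and 5.70 at 6 h against 6.98 and 6.19 in WT set 1, a difference of -1.08 ± 0.34 without a call.

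Read by the probe set of highest mean for each gene, 12 of the 13 innate signalling genes were tested in microglia. In the WT response at 6 h 2 rose and none fell, with a median of 0.07, where 12.7% of all probe sets were called (6.53% rose and 6.16% fell). Against WT, KO had 3 higher untreated, 2 at 6 h and 4 at 24 h, none lower, with medians of 0.24, 0.06 and 0.25, against -0.11, -0.10 and -0.08 over all probe sets tested. Of all probe sets 6.87%, 2.41% and 10.4% were higher there, and 14.3%, 7.6% and 27.6% were called in either direction. Those shares count probe sets, while the list counts genes, and a difference between them was not tested. The 13 genes were put on the list with earlier results known.

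Among the proteases reported to bind ISG15 or to recycle ubiquitin, Usp21 rose and Usp14 fell. Usp21 can remove ubiquitin from the RNA sensor and has been reported to react with ISG15 probes. Probe set 1454034_a_at read 7.91 and 8.65 in untreated WT set 1, 9.91 and 10.57 at 6 h and 9.35 and 10.06 at 24 h. KO read 9.84 to 10.68 at all times, whereas WT set 2 read 6.36 to 6.60, C61A 5.67 to 6.85 and BV-2 5.57 to 6.34. The probe set thus stood apart between the sets before any treatment: untreated WT set 1 exceeded set 2 by 1.83 ± 0.32 (adjusted p = 0.00104). In that comparison 5 members were higher in set 1, of Usp1, Usp21, Usp34, Usp48 and Usp49. There 7 were lower, of Usp4, Usp7, Usp9x, Usp15, Usp25, Usp36 and Usp47. Of all probe sets 28.6% were called in it (16% higher and 12.5% lower). Untreated KO against WT set 1 was 1.85 ± 0.32 (adjusted p = 0.00294), kept in all fits that leave out 1 array and lost where both WT sets serve as the control with set additive (1.31) or left out (2.76). At 6 h and 24 h KO and WT set 1 differed by 0.21 and 0.30 ± 0.32, without a call.
In WT the 6 h rise was 1.00 ± 0.23 (adjusted p = 0.0135), 1.96 in set 1 and 0.04 in set 2. It was lost without untreated WT set 1 replicate 1, WT set 1 6 h replicate 2, WT set 2 6 h replicate 1 or untreated WT set 2 replicate 2, at 0.81 to 0.95. At 24 h set 1 alone gave 1.42 ± 0.32 (adjusted p = 0.0387, where 1.9% of all probe sets were called, 1.46% up and 0.443% down). The KO response minus the WT set 1 response was -1.64 ± 0.46 after 6 h (adjusted p = 0.13). After 24 h it was -1.55 ± 0.46 (adjusted p = 0.178).

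Usp14, a proteasome-bound protease that recycles ubiquitin, was lower wherever it was called. Probe set 1455829_at read 8.02 and 7.87 in untreated WT set 1, 7.03 and 6.24 at 6 h and 7.15 and 6.998 at 24 h. KO read 6.86 and 7.12, then 6.24 and 6.62, then 6.13 and 5.91. WT set 2 read 7.93 and 8.20 untreated and 7.60 and 7.69 at 6 h, so the treated arrays lay below the untreated ones in both sets. The WT change at 6 h was -0.87 ± 0.18 (adjusted p = 0.00854), -1.31 in set 1 and -0.42 in set 2, and it was called in all fits that leave out 1 array. Probe set 1416208_at of the same gene changed by -0.54 ± 0.15 (adjusted p = 0.0315), a call lost without either untreated WT set 1 array, WT set 1 6 h replicate 2, untreated WT set 2 replicate 2 or either WT set 2 6 h array (-0.55 to -0.45). The remaining probe set, 1437714_x_at, changed by 0.09 ± 0.20.
Against WT, KO had 1455829_at lower by -0.96 ± 0.25 untreated (adjusted p = 0.0221) and -1.05 ± 0.25 at 24 h (adjusted p = 0.00752), and 1416208_at by -0.82 ± 0.21 untreated. At 24 h 1416208_at averaged 7.90 in KO and 8.38 in WT set 1, without a call. Probe set 1437714_x_at averaged 8.70 in KO and 8.78 in WT set 1 untreated, and 8.57 and 8.79 at 24 h, also without a call. The untreated calls were lost without KO replicate 1 (-0.83 and -0.70) or WT set 1 replicate 1 (-0.88 and -0.85) or 2 (-1.03 and -0.79). The 24 h call was lost without KO replicate 2 (-0.94) or WT set 1 replicate 1 (-0.98). Within KO the fall at 24 h was -0.97 ± 0.25 (adjusted p = 0.0497), lost without KO 24 h replicate 1 (-1.08) or 2 (-0.86), KO 0 h replicate 2 (-0.84), or any of 14 arrays outside the comparison. In C61A 1416208_at went from 9.38 and 9.87 to 8.79 and 8.95 at 24 h (-0.76 ± 0.21, adjusted p = 0.0399), the only C61A call, where 8.62% of all probe sets were called (4.75% rose and 3.87% fell). Leaving out any of its 4 arrays ended that call (-0.9999 to -0.51), as did leaving out any of 8 arrays outside the comparison. With siUsp18 both probe sets fell at 24 h, by -0.77 ± 0.22 and -0.89 ± 0.25, from 10.48 and 10.33 to 9.82 and 9.44 for 1416208_at; leaving out either untreated siUsp18 array, siUsp18 24 h replicate 2 or any siCo array ended both calls (-1.03 to -0.54).
The other tested members of this role did not pass the test in any comparison. Usp5, which disassembles unanchored chains, read 7.14 and 7.67 in KO at 6 h against 7.82 and 7.94 in WT set 1, a difference of -0.48 ± 0.18. Usp16, a histone H2A deubiquitinase that has been reported to act on ISG15, gave -0.47 ± 0.15 in the same comparison. Usp2 (1417169_at) gave -0.12 ± 0.30. The other Usp2 probe set, 1417168_a_at, averaged 5.28 in KO and 5.88 in WT set 1 at 6 h, without a call. In C61A 1417168_a_at averaged 6.63 untreated and 5.52 at 24 h, also without a call. The 5 genes tested here were read by the probe set of highest mean. Of them 1 rose and 1 fell in WT at 6 h, where 12.7% of all probe sets were called. The same held in untreated KO against WT, where 14.3% were.

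**Figure D3:**
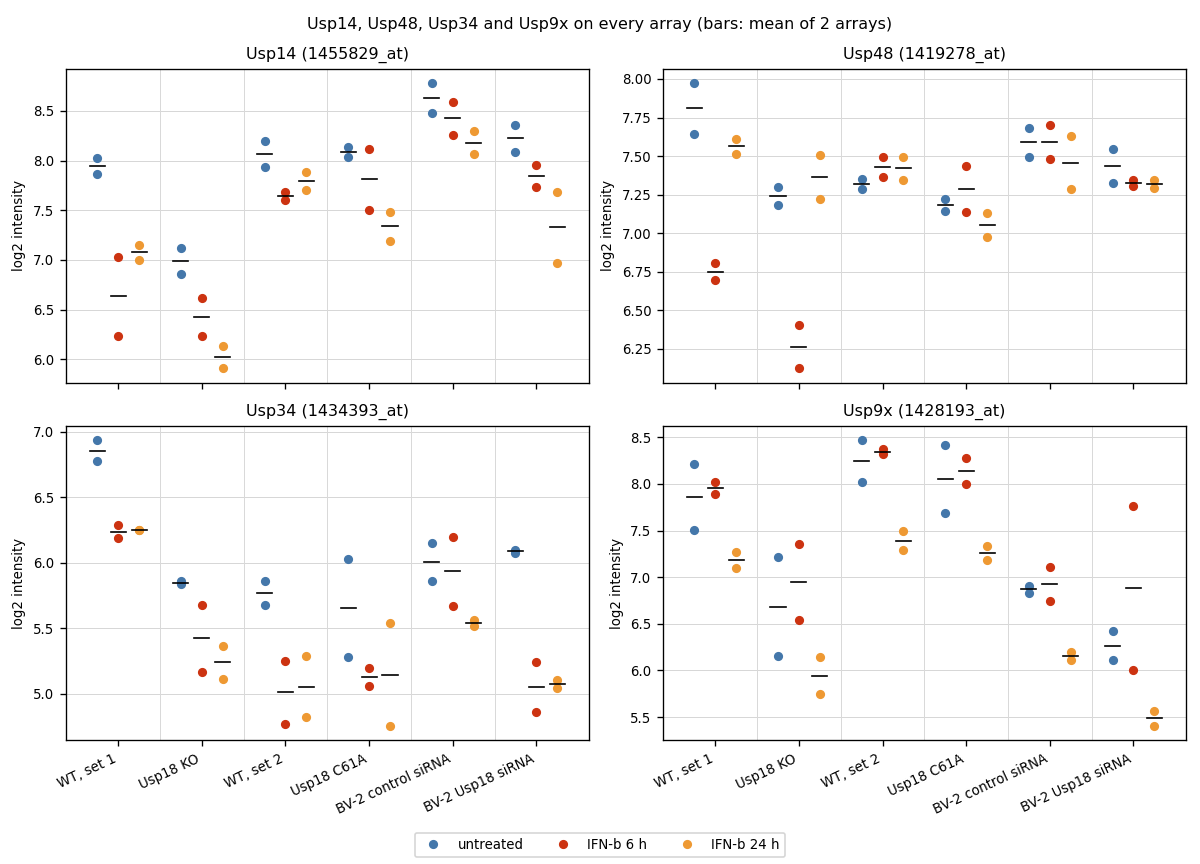
Log2 intensity (vertical axis) of Usp14, Usp48 (1419278_at), Usp34 and Usp9x on each of 36 arrays, by genotype or siRNA (horizontal axis) and time of IFN-b (colour); points are arrays and bars the mean of 2 arrays. The KO arrays of Usp14 at 24 h, at 6.13 and 5.91, lie below the WT set 1 arrays at 7.15 and 6.998.

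Of the members placed with DNA repair, chromatin and cell cycle, Usp48 fell at 6 h in WT. Usp48 is a nuclear protease that acts on histone H2A and on the NF-kB subunit RelA. Its 3 probe sets changed by -0.70 ± 0.20 (1419277_at, adjusted p = 0.0377), -0.48 ± 0.12 (1419278_at, adjusted p = 0.018) and -0.80 ± 0.22 (1424056_at, adjusted p = 0.0304). Probe set 1424056_at read 7.79 and 8.17 in untreated WT set 1, 6.63 and 6.55 at 6 h and 7.55 and 7.98 at 24 h, so the fall was seen at 6 h and not at 24 h. In WT set 2 it read 7.23 and 7.57, then 7.19 and 7.18.
For 1419278_at the sets differed: set 1 changed by -1.06 and set 2 by 0.11, a difference of -1.17 ± 0.23 (adjusted p = 0.0378), the only member call in that test, where 0.65% of all probe sets were called (0.48% higher in set 1 and 0.17% lower). The WT call of 1419278_at was lost without untreated WT set 1 replicate 2 (-0.39), WT set 2 6 h replicate 1 (-0.44) or untreated WT set 2 replicate 2 (-0.46). Those of 1419277_at and 1424056_at were lost without either untreated WT set 1 array, WT set 1 6 h replicate 2, untreated WT set 2 replicate 2 or either WT set 2 6 h array, and that of 1424056_at also without WT set 1 6 h replicate 1 (-0.90 to -0.51).
KO repeated the 6 h fall of 1419278_at: 7.18 and 7.30 untreated, 6.12 and 6.41 at 6 h and 7.51 and 7.22 at 24 h, a 6 h change of -0.97 ± 0.16 (adjusted p = 0.00698). That call was lost without KO 6 h replicate 1 (-0.83) or KO 0 h replicate 2 (-0.92). Against WT, KO was lower for 1419278_at untreated (-0.57 ± 0.16, adjusted p = 0.0334) and for 1424056_at at 24 h (-1.15 ± 0.31, adjusted p = 0.0155). The former was lost without KO replicate 1 (-0.51) or WT set 1 replicate 2 (-0.41) and with culture as a random block (adjusted p = 0.0525), the latter without KO replicate 1 (-0.77) or WT set 1 replicate 2 (-0.93). The untreated call of 1419278_at was also lost where both WT sets served as the control, with set additive (-0.32) or left out (-0.33). With siUsp18 1419277_at fell from 6.76 and 6.59 to 5.91 and 5.47 at 24 h (-0.99 ± 0.24, adjusted p = 0.0294), a call lost without untreated siUsp18 replicate 1 (-0.90) or 2 (-1.07), siUsp18 24 h replicate 2 (-0.77) or either siCo 24 h array (-0.99). In the same comparison 1419278_at changed by -0.12 ± 0.18 and 1424056_at by -0.58 ± 0.30, and neither was called.

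Usp47, which keeps beta-catenin and DNA polymerase beta from being degraded, was called at 6 h in KO and was not called in WT. Probe set 1426976_at read 8.51 and 8.80 in untreated KO, 10.06 and 9.51 at 6 h and 8.94 and 8.89 at 24 h, while WT set 1 read 8.77 and 8.82, then 8.95 and 8.93, then 8.44 and 8.36. The KO change at 6 h was 1.13 ± 0.17 (adjusted p = 0.00441), and that of 1426977_at 1.04 ± 0.16 (adjusted p = 0.00441). Both calls were lost without KO 6 h replicate 1 (0.85 and 0.89). The WT changes were 0.04 ± 0.12 and 0.17 ± 0.11. The difference between the KO and WT set 1 responses was 0.99 ± 0.24 for 1426976_at, with an adjusted p of 0.0815, so a difference between the genotypes' responses was not called. Without the doubted arrays its adjusted p was 0.0368.
KO lay above WT set 1 at 6 h by 0.85 ± 0.17 (adjusted p = 0.0123) and 0.70 ± 0.16 (adjusted p = 0.0189), and at 24 h by 0.51 ± 0.17 (adjusted p = 0.0372) and 0.57 ± 0.16 (adjusted p = 0.0172). At 6 h 1426976_at lost its call without KO 6 h replicate 1 (0.57) or WT set 1 6 h replicate 1 (0.86) or 2 (0.84), and 1426977_at without KO 6 h replicate 1 (0.55) or WT set 1 6 h replicate 1 (0.57). At 24 h the calls were lost without KO replicate 1 (0.49 and 0.63) or 2 (0.54 and 0.51) or WT set 1 replicate 1 (0.55 and 0.49), and that of 1426976_at also without WT set 1 replicate 2 (0.48) and with culture as a random block (adjusted p = 0.068). Both 24 h calls were also lost where both WT sets served as the control, with set additive (0.39 and 0.43) or left out (0.24 and 0.1). The 12 BV-2 arrays of 1426976_at stayed within 8.64 to 9.17.
Usp45, which acts in repair of DNA crosslinks, was lower in untreated KO for 1427991_s_at, at 7.42 and 7.40 against 7.98 and 8.05 (-0.60 ± 0.18, adjusted p = 0.0415). In WT set 1 alone it fell at 6 h, to 7.41 and 7.36 (-0.63 ± 0.18). In WT set 2 it read 8.34 and 8.59 untreated and 8.68 and 8.84 at 6 h (0.30 ± 0.18, not called). The other Usp45 probe set tested in microglia, 1427990_at, averaged 7.21 in untreated KO and 7.48 in untreated WT set 1, without a call. At 6 h that probe set averaged 7.39 in WT set 1. Usp24 (1448013_at) was lower in KO at 24 h, at 5.89 and 6.29 against 6.89 and 6.89 (-0.80 ± 0.26, adjusted p = 0.0331). The other Usp24 probe set, 1448014_s_at, averaged 5.73 in KO and 6.13 in WT set 1 at 24 h, without a call. The Usp45 call was lost without any of its 4 arrays (-0.64 to -0.57) or any of 4 arrays outside the comparison, and with culture as a random block (adjusted p = 0.0501). The Usp24 call was lost without KO replicate 1 (-0.60) or WT set 1 replicate 1 or 2 (-0.80), and with culture as a random block (adjusted p = 0.0587). Of the 7 genes of this role tested, read by the probe set of highest mean, none rose and 1 fell in WT at 6 h (median -0.15). In KO against WT 2 were lower untreated, 1 was higher at 6 h, and 1 was higher and 1 lower at 24 h. Calls of other probe sets of a gene are not in these counts. Over all probe sets 12.7% were called in WT at 6 h and 14.3%, 7.6% and 27.6% in KO against WT.

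Usp34, which acts on the Wnt regulator axin, and Usp9x, which stabilises many substrates in traffic and polarity, were lower in KO. Usp34 1434393_at read 6.78 and 6.93 in untreated WT set 1 and 5.84 and 5.86 in untreated KO, then 6.25 and 6.25 against 5.12 and 5.37 at 24 h. The differences were -1.01 ± 0.28 untreated (adjusted p = 0.0298) and -1.01 ± 0.28 at 24 h (adjusted p = 0.0173), and 1434392_at differed by -0.84 ± 0.29 at 24 h (adjusted p = 0.0397). Where both WT sets served as the control and set was left out, 1434393_at differed by -0.46 untreated and -0.41 at 24 h, without a call. With set additive both of its calls were kept. The untreated call was lost without any of its 4 arrays (-1.08 to -0.93) and with culture as a random block (adjusted p = 0.0544), that of 1434393_at at 24 h without KO replicate 1 (-0.88) or either WT set 1 array (-1.01), and that of 1434392_at without any of its 4 arrays (-0.97 to -0.72) or either untreated WT set 1 array.
In WT at 6 h 1434393_at changed by -0.69 ± 0.20 (adjusted p = 0.0369), -0.62 in set 1 and -0.76 in set 2, with the same sign in both sets. That call was lost without any set 1 or set 2 array of the comparison other than untreated WT set 2 replicate 1 (-0.81 to -0.57). With siUsp18 it read 6.08 and 6.10 untreated, 5.24 and 4.87 at 6 h and 5.10 and 5.05 at 24 h, changes of -1.03 ± 0.21 after 6 h (adjusted p = 0.0475) and -1.01 ± 0.21 after 24 h (adjusted p = 0.0174); 1434392_at fell by 0.97 at 24 h (adjusted p = 0.0273). The 24 h calls were lost without untreated siUsp18 replicate 1 or 2 or siUsp18 24 h replicate 2 (-1.17 to -0.74).
Usp9x had 5 kept probe sets, and they did not move together. Against WT, KO was lower for 1428193_at untreated (-1.18 ± 0.35, adjusted p = 0.0392) and at 24 h (-1.24 ± 0.35, adjusted p = 0.0192), for 1428194_at at 6 h (-1.29 ± 0.33, adjusted p = 0.0327) and 24 h (-1.01 ± 0.33, adjusted p = 0.0348), and for 1450038_s_at at 24 h (-1.17 ± 0.39, adjusted p = 0.0381). At 24 h 1420922_at gave -0.55 ± 0.30 and 1450039_at 0.04 ± 0.37. Probe set 1428193_at read 7.26 and 7.09 in WT set 1 at 24 h and 5.74 and 6.14 in KO, without overlap, whereas untreated WT set 1 read 7.50 and 8.22 and KO 6.15 and 7.21. The untreated call was lost without KO replicate 1 (-0.65), WT set 1 replicate 1 (-1.53) or 2 (-0.82), or any of 4 arrays outside the comparison. That at 6 h was lost without KO 6 h replicate 1 (-0.84) or WT set 1 6 h replicate 1 (-1.23) or 2 (-1.34). At 24 h 1428193_at lost its call without KO replicate 1 (-1.04) or either WT set 1 array (-1.15 and -1.32), and the other 2 without any of the 4 arrays (-1.39 to -0.94). That of 1450038_s_at was also lost with culture as a random block (adjusted p = 0.0538).
Without the doubted arrays 1420922_at and 1450039_at rose in WT at 6 h, by 0.70 and 1.02, and in KO, by 0.85 and 0.82. The untreated set difference of 1450039_at was -1.06 ± 0.37 (adjusted p = 0.042). Usp39, which lacks protease activity and belongs to the spliceosome, was higher in untreated KO for 1437007_x_at, at 9.02 and 9.04 against 8.38 and 8.31 (0.68 ± 0.20, adjusted p = 0.038), a call lost without any of its 4 arrays (0.64 to 0.72); its other probe set 1460209_at gave 0.20 ± 0.16. Of the 12 genes listed with traffic, mitochondria and the cytoskeleton, 4 were tested, read by the probe set of highest mean. None was called in WT at 6 h (median -0.16, with 12.7% of all probe sets called). In KO against WT 1 was lower at 24 h (median -0.50, with 27.6% of all called). Calls of other probe sets of a gene are not counted there.

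**Figure D4:**
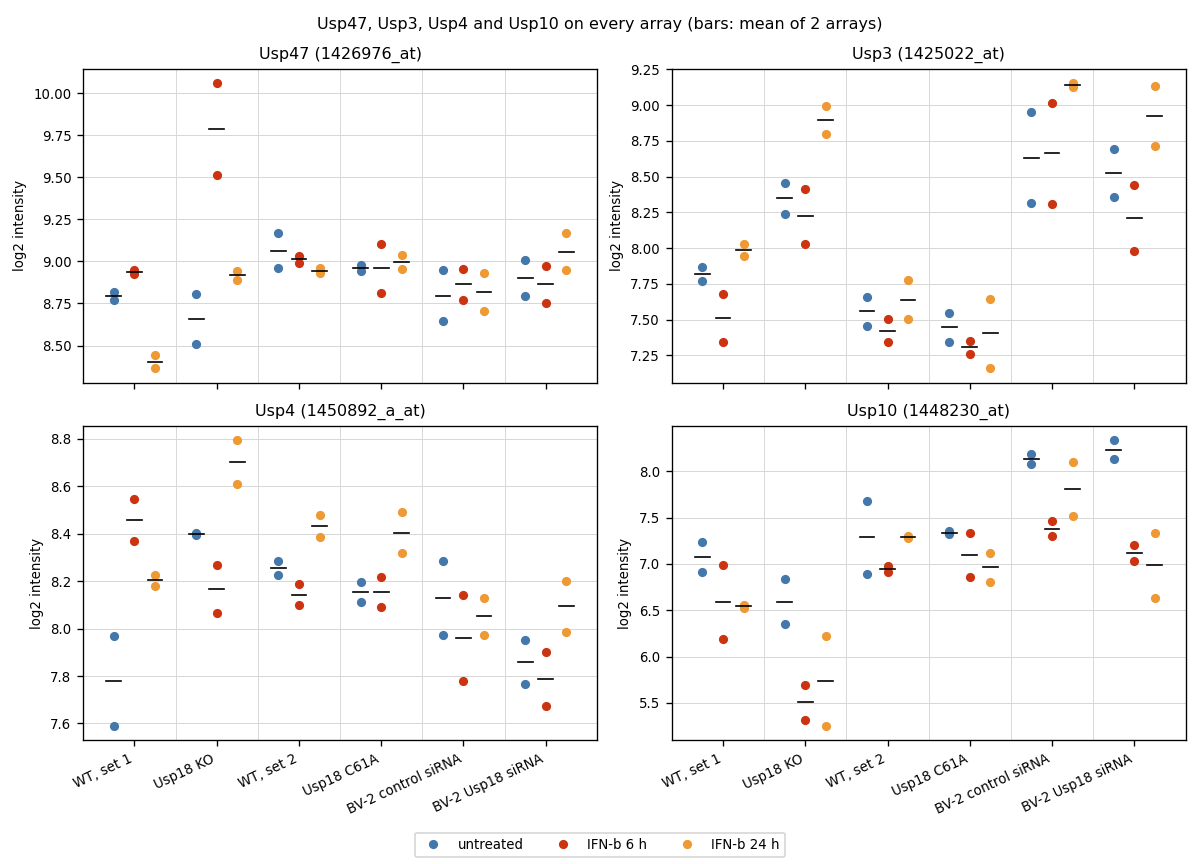
Log2 intensity (vertical axis) of Usp47, Usp3, Usp4 and Usp10 on each of 36 arrays, by genotype or siRNA (horizontal axis) and time of IFN-b (colour); points are arrays and bars the mean of 2 arrays. Usp47 in KO at 6 h, at 10.06 and 9.51, lies above all other arrays.

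C61A microglia gave no member call against WT set 2, untreated, at 6 h or at 24 h, where 0.00738%, 0.00738% and 0.0221% of all probe sets were called with limma; 2 members had an unadjusted p under 0.05 at each time. The members that moved most were Usp12 1427478_at untreated (-0.92 ± 0.65), Usp25 at 6 h (-0.72 ± 0.42) and Usp11 at 24 h (0.53 ± 0.47), and the 95% interval of the Usp25 difference ran from -1.61 to 0.16. The C61A response at 6 h gave none, where 0.0221% of all were called, with 1 unadjusted p under 0.05. Without the doubted arrays, which include C61A 6 h replicate 2, only 1 C61A array remains at 6 h, so only changes are given. They were 1.93 for Usp12 1427478_at, 1.502 for Usp12 1434483_at, 1.33 for Usp25 and 1.03 for Usp9x 1450039_at.
Whether the KO effect and the C61A effect differ was tested directly, each against WT of its own set. Untreated, the difference was called for Usp21 (2.35 ± 0.46), Usp25 (2.10 ± 0.59), Usp15 (1.59 ± 0.34), Usp4 (0.72 ± 0.21) and Usp14 1416208_at (-1.07 ± 0.30), where 10.8% of all probe sets were called (6.47% higher and 4.3% lower). That test uses the array labelled untreated WT set 2 replicate 1. At 6 h none was called, where 0.258% were, and 11 members had an unadjusted p under 0.05. At 24 h Usp3 was called (1.15 ± 0.28, adjusted p = 0.0432), where 2.43% of all were (1.55% higher and 0.878% lower). Genotype and set cannot be told apart for the levels behind these differences.

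Whether the response to IFN-b differed with genotype was tested by the difference of responses. For KO minus WT set 1 no member was called at 6 h or 24 h with limma, where 0.436% and 0.428% of all probe sets were, and 10 and 6 members had an unadjusted p under 0.05. The largest differences were those of Usp21 given above, and the lowest adjusted p was that of Usp4 at 6 h (-0.91 ± 0.21, adjusted p = 0.0675). Without the doubted arrays 3 were called at 6 h, Usp47 1426976_at (0.99), Usp39 1437007_x_at (-1.17) and Usp4 (-0.91). For C61A minus WT set 2 none was called, as for all probe sets, with none and 1 unadjusted p under 0.05; the largest were Usp12 1427478_at at 6 h (0.88 ± 0.92) and 1434483_at at 24 h (1.36 ± 0.71).

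In BV-2 all member calls came from the responses of cells with siUsp18, and the difference between the siRNAs' responses gave none. The untreated siUsp18 arrays from which those responses are measured had interferon reporters at 6.32 and 8.92, against 4.78 and 5.39 with siCo, and the part of this in the calls was not tested. With siCo none was called at 6 h or 24 h with limma, where 0.861% and 0.541% of all 12196 probe sets were, and 5 and 2 members had an unadjusted p under 0.05; Usp25 moved most at both times. With siUsp18 1 rose and 1 fell of 48 at 6 h, where 1.75% were called (0.927% rose and 0.828% fell), and 1 rose and 6 fell at 24 h, or 14.6%, where 15.6% were (5.92% rose and 9.64% fell). The 6 h calls, of Usp25 and Usp34, were lost without the array labelled siUsp18 6 h replicate 2 (1.34 and -0.85), without untreated siUsp18 replicate 1 (1.65 and -1.04) or 2 (1.80 and -1.02), and without any of the 6 siCo arrays, while the count was 6 without siUsp18 6 h replicate 1 and 4 without either siUsp18 24 h array. At 24 h the count was 0 without untreated siUsp18 replicate 1 or 2 or siUsp18 24 h replicate 2, 15 without siUsp18 24 h replicate 1 and 4 without either siCo 24 h array, and the Usp25 call was lost without untreated siUsp18 replicate 1 (1.53) or 2 (1.68) or siUsp18 24 h replicate 2 (1.12). Median changes at 24 h were -0.28 over the members and -0.14 over all.
No member was called between the siRNAs. For siUsp18 against siCo none was called untreated, at 6 h or at 24 h with limma, where 0%, 0% and 3.72% of all probe sets were, and 0, 11 and 15 members had an unadjusted p under 0.05. The largest differences were Usp9x 1428193_at untreated (-0.60 ± 0.44), Usp24 1448014_s_at at 6 h (-0.99 ± 0.27) and Usp12 1434483_at at 24 h (1.39 ± 0.42). At 24 h the count was 11 without siUsp18 24 h replicate 1 and 1 without siUsp18 6 h replicate 1 or 2, and Usp25 was called without the doubted arrays (1.28). The difference of responses gave no call at 6 h or 24 h, where 0% and 0.0082% of all were called and 3 members at each time had an unadjusted p under 0.05; the largest were Usp34 1434393_at (-0.96 ± 0.30) and Usp12 1425805_a_at (1.23 ± 0.58).

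The other enzymes of these pathways set the members in scale. Of the ISG15 system, Usp18 rose by 4.20 ± 0.64 in WT at 6 h (adjusted p = 0.00236), the activating enzyme Uba7 by 2.00 ± 0.35 and the conjugating enzyme Ube2l6 by 2.37 ± 0.60, all above the 1.17 of Usp25. In set 1 alone Usp18 rose by 6.65, Uba7 by 3.13 and Ube2l6 by 3.45. In set 2 alone Usp18 changed by 1.75 ± 0.90, and none of these genes was called. Untreated KO exceeded WT for Uba7 (3.22 ± 0.50) and Ube2l6 (3.56 ± 0.85). Of 11 OTU-family deubiquitinases tested in WT at 6 h, Otud5 rose (0.72 ± 0.17), and Otud6b (-0.44 ± 0.13) and Zranb1 (-0.42 ± 0.12) fell. Of all probe sets 12.7% were called there. In set 1 alone these genes changed by 1.38, -0.64 and -0.51, and in set 2 alone none of them was called. Alg13 fell at 24 h (-0.61 ± 0.15), where 2.5% of all were called, and was called in neither set alone.
Of all probe sets 14.3%, 7.6% and 27.6% were called in KO against WT untreated, at 6 h and at 24 h. In these comparisons Otud5 was higher untreated (0.95), and Otud6b was lower untreated, at 6 h and at 24 h (-0.76, -0.68 and -0.64). Alg13 was lower untreated and at 24 h (-0.70 and -0.65), and at 24 h Tnfaip3 (1.28) and Otub2 (0.65) were higher. Of 6 JAMM-family members, Stambpl1 was higher in KO at each time (1.72, 1.61 and 1.80) and Mpnd was lower at 24 h (-1.17). No gene of the UCH family (3 tested) or the Machado-Joseph family (1 tested) was called in the WT responses or in KO against WT.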

How the data were processed

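Total RNA of 36 samples was hybridised, 1 array each, to Affymetrix mouse arrays after one-cycle labelling, per the labels' protocols. The deposited values are log2 intensities, the log base being read from their range (1.66 to 14.0). The submitters' processing notes name affy; how probes were summarised and normalised is not given in the sources used here. Array medians lay between 5.59 and 5.82, no pair of arrays was identical, and the 2 arrays per group limit the precision.

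Of 22626 probe sets, 20380 had 1 gene. limma 3.58.1 (R 4.3.3) was fitted to probe sets above their array's median on at least 2 arrays, for the 24 microglia arrays (group and WT set, 12 residual degrees of freedom) and the 12 BV-2 arrays (6) separately. P-values were adjusted by Benjamini-Hochberg over all probe sets of a fit and called under 0.05; errors are SEs. The code was tested on simulated data. Values were named where a member was called, moved most in a comparison without calls, acts on ISG15 or innate signalling, or is Usp9x or Usp9y; members with probe sets of opposite sign and other deubiquitinases called in WT responses or KO comparisons were also named. Members and lists were chosen with earlier results of these data known.

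Whether replicate numbers pair samples was checked by correlating deviations from group means between times. Within WT set 1 they were 0.413 to 0.659 and within set 2 0.287 to 0.482, so WT numbers were taken as cultures followed over time. The main fit did not use this pairing. It entered the alternatives with a replicate block, for every line. Alternatives changed the normalization, filter, gene level, set term, replicate block and arrays used.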

Additional observations from a re-analysis of the deposited data

Results flagged for a closer look

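The WT responses at 6 h differed between the sets for Usp48 1419278_at, by -1.17 ± 0.23 (limma, adjusted p = 0.0378), set 1 falling in both arrays and set 2 not.

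The effect of KO, less the effect of C61A, each against WT of its own set, differed from 0 in untreated cells for 5 probe sets. For Usp21 it was 2.35 ± 0.46 (adjusted p = 0.00818), for Usp25 2.10 ± 0.59 (adjusted p = 0.0362), for Usp15 1.59 ± 0.34 (adjusted p = 0.0115) and for Usp4 0.72 ± 0.21 (adjusted p = 0.0433). For Usp14 1416208_at it was -1.07 ± 0.30 (adjusted p = 0.0365). At 24 h the same test gave 1.15 ± 0.28 for Usp3 1425022_at (adjusted p = 0.0432). The untreated comparison includes the array labelled untreated WT set 2 replicate 1, which carried interferon reporters at a treated level; its part was not tested.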

How the results depend on the processing

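With 2 arrays a group, the spread rests on few arrays, and most calls were lost when 1 array was left out. Exceptions in all such fits were Usp15 and Usp3 in KO against WT at 24 h, Usp21 in untreated KO against WT and Usp14 1455829_at in WT at 6 h. Set 2 had no call of its own in either WT response. The causes of the changes below were not tested. All figures are numbers of member probe sets called. The share of all probe sets called in the same fit was not computed, except within set 1 or set 2 alone. The counts are therefore no result about the family against all probe sets.

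Leaving out 1 array gave 1 to 15 calls for the WT response at 6 h, 0 to 8 and 0 to 2 for the KO responses at 6 h and 24 h, and 0 to 3 for the C61A response at 24 h. KO against WT gave 1 to 15 untreated, 0 to 10 at 6 h and 3 to 15 at 24 h. The siUsp18 responses gave 0 to 6 at 6 h and 0 to 15 at 24 h, siUsp18 against siCo 0 to 1 at 6 h and 0 to 11 at 24 h, and the siCo response at 6 h 0 to 1. The difference of KO and WT responses at 6 h gave 0 to 2 and that of the siRNA responses at 24 h 0 to 1.

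For the WT response at 6 h there were 4 calls at gene level, 0 without the set term, 3 with set as an additive term, 0 within set 2 alone and 15 without the doubted arrays. For the WT response at 24 h there was 1 within set 1 alone (chosen after the data were seen) and 1 without the doubted arrays. For the KO response at 6 h there was 1 without the set term and 9 without the doubted arrays. At 24 h there were 0 after quantile normalization, array centring, no filter, gene level, no set term or an additive set term. Without the doubted arrays 1 C61A array remains at 6 h, so no count is given for that response. For the C61A response at 24 h there were 0 after quantile normalization, centring, no filter, no set term or an additive one. It gave 2 with a filter on the mean and 3 without the doubted arrays. Untreated KO against WT gave 7 at gene level, 2 without the set term and 3 with set additive. At 6 h it gave 3 after centring, 3 at gene level and 9 with set additive, and at 24 h 7 at gene level. The difference of KO and WT responses at 6 h gave 1 at gene level and 3 without the doubted arrays. The siUsp18 response at 6 h gave 1 after quantile normalization, centring, the filter on the mean or gene level, and 0 with no filter or without the doubted arrays. At 24 h it gave 4 at gene level, and siUsp18 against siCo at 24 h gave 1 without the doubted arrays.

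With culture as a random block, the replicate block gave 16 and 6 calls for the WT responses at 6 h and 24 h, 11 and 5 for the KO responses, and 7 for the C61A response at 24 h. It gave 6 and 1 for the difference of KO and WT responses, 1 for the siCo response at 6 h, 6 and 16 for the siUsp18 responses and 1 for siUsp18 against siCo at 24 h. With set and number as a fixed block the counts were 2 for the WT response at 24 h, 8 for KO at 6 h, 5 for C61A at 24 h and 18 for untreated KO against WT. They were 3 and 1 for the difference of KO and WT responses, 1 for siCo at 6 h, 6 and 12 for the siUsp18 responses, and 1 and 11 for siUsp18 against siCo at 6 h and 24 h. Only 2 numbers could be checked per line, as in each WT set. Outside WT the correlations were 0.675 to 0.807 for KO, 0.507 to 0.62 for C61A, 0.272 to 0.679 for siCo and 0.259 to 0.477 for siUsp18.

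Usp48 1419278_at was the only member called whose direction turned under an alternative: its WT change at 6 h was 0.11 within set 2 alone.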
